A study of Bubalus bubalis with 12 samples.

Results

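Between 3 h and 6 h after a luteolytic dose of prostaglandin F2α (PGF2α) analogue, few genes of the buffalo corpus luteum (CL) passed the test. With 1 probe set per gene, the largest rises among those that passed were in the heparan sulfate enzyme gene HS3ST5, MAP3K7CL and C23H6orf141. The comparison set the 3 arrays labelled 6 h post treatment against the 2 arrays labelled 3 h, which is 5 of the 12 arrays of the series. All 24016 probe sets that were not array controls were tested. The 3 h arrays carry the replicate numbers 1 and 3, and because only 2 exist each is given singly throughout.

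Every CL came from a buffalo cow (Bubalus bubalis) on day 11 of the estrous cycle. The 3 h and 6 h animals received 500 µg of cloprostenol, a synthetic PGF2α, by intramuscular injection, and each array holds total RNA of 1 whole CL from 1 animal. The labels give another 4 untreated animals for the 0 h group and 3 further treated animals for the 18 h group, and both groups served to estimate the spread and to show where a level lay before and after the interval. The arrays were Affymetrix Bovine Genome Arrays, whose probes follow cattle sequence, so a level can be compared between arrays for the same probe set but not between probe sets.

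The CL, a short-lived gland built from what remains of the follicle after ovulation, is the main source of progesterone. PGF2α from the uterus, or an injected analogue, binds its receptor on luteal cells and ends the life of the gland: progesterone output declines first, and breakdown of the tissue, with loss of vessels and arrival of immune cells, comes later. Transcription factors of the immediate early class respond within the first hours to such a receptor signal, and ligands, cytokines and matrix genes follow.

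Luteal genes were read in all 5 arrays. STAR, the carrier of cholesterol into mitochondria, lay between 14.62 and 14.86 on the log2 scale, CYP11A1 between 13.95 and 14.14, HSD3B1 between 14.03 and 14.65, PTGFR between 13.05 and 13.53 and LHCGR between 9.46 and 11.40. Levels of different probe sets cannot be set against each other, so these values describe the labelled tissue and do not test it. A whole gland was measured, so for any gene of a minor cell type fewer cells and less RNA per cell cannot be told apart.

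The 2 arrays at 3 h stood apart from each other. They differed by more than 2-fold in 1306 probe sets, against 220 to 802 in the other pairs of arrays within a group, except 0 h replicates 1 and 4, which differed in 6. The labels count those 2 as separate animals and they were kept as such, but whether they hold separate RNA is not settled here. They enter through the estimate of the spread, and with both averaged 27 probe sets and 12 genes were called in place of 57 and 15. On the first principal component (42.8% of the variance) 3 h replicate 1 lay at -29.6, inside the range of the 0 h arrays (-48.8 to -13.8), while 3 h replicate 3 lay at 1.89 and the 6 h arrays between 16.3 and 35.9. Array medians differed little (7.09 to 7.17). The cause of this gap was not tested.

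At the level of probe sets, 57 of 24016 (0.237%) passed an adjusted p of 0.05 in the limma fit. These comprised 44 that were up regulated (0.183%) at 6 h and 13 that were down regulated (0.0541%). Among them 41 (0.171%) differed at least 2-fold. An unadjusted p under 0.05 was reached by 3017 probe sets (12.6%). Among the 57, a single gene symbol was given for 32, standing for 27 different symbols, and 25 had no symbol here. Those without a symbol comprised 20 that were higher and 5 that were lower at 6 h, with differences from -1.62 to 2.56.

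With 1 probe set per gene, 15 of 9155 genes were called (0.164%). At 6 h 11 were up regulated (0.12%) and 4 were down regulated (0.0437%), and 11 of the 15 differed at least 2-fold. In each of the 11 up regulated genes all 3 arrays at 6 h lay above the range of the 4 untreated arrays, and in each of the 4 down regulated genes all 3 lay below it. The share over all genes was not counted. The untreated arrays also enter the estimate of the spread, so this position is no separate support for the calls. The 2 arrays at 3 h lay close together for most called genes: the absolute gap between them had a median of 0.217 (0.277 over all genes), ranged from 0.00804 to 0.804, and was under 0.5 in 12 of the 15. A call needs a small spread, so this closeness is partly set by the test.

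**Figure D1:**
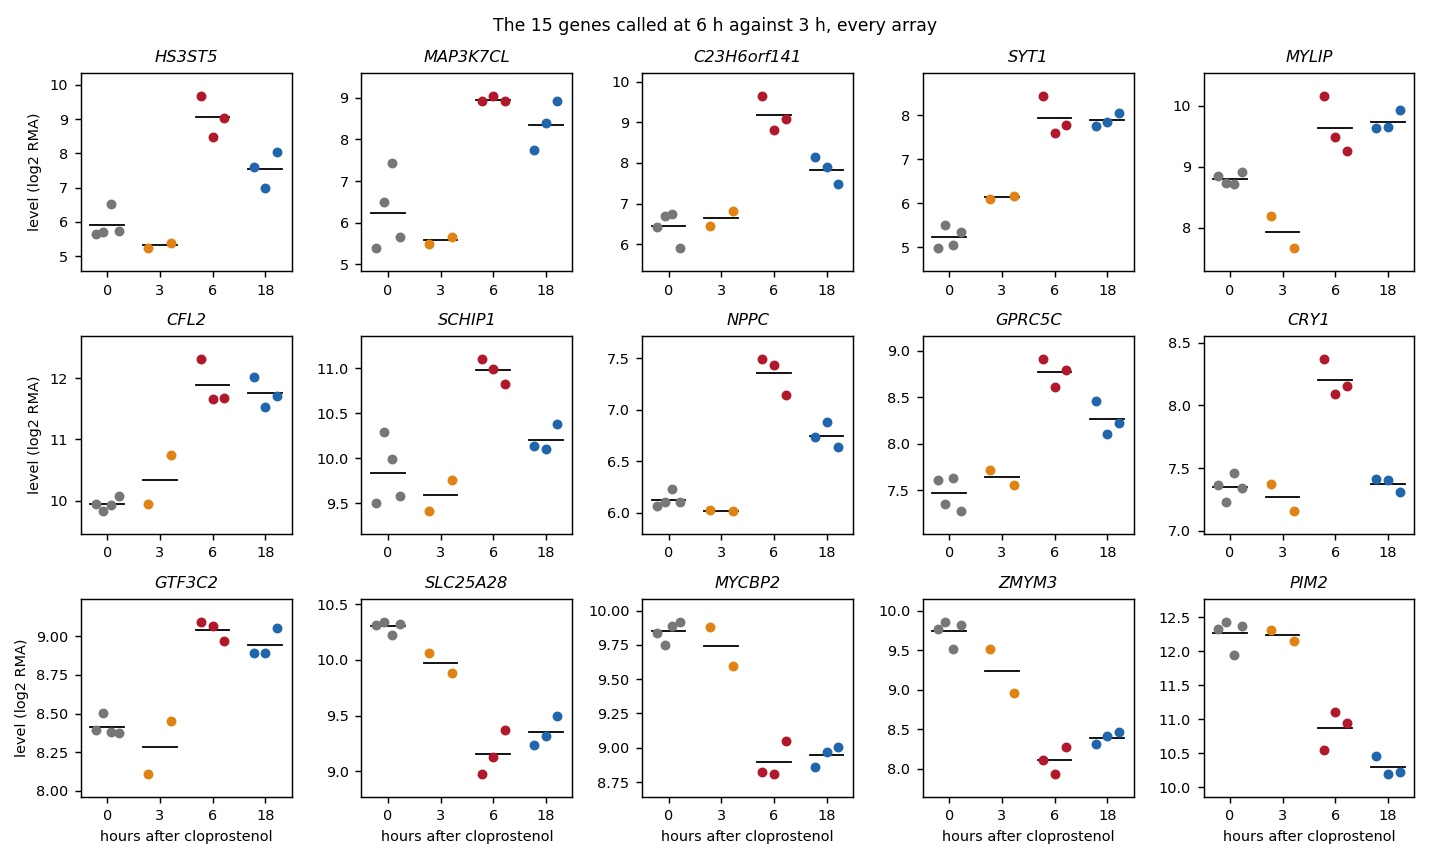
Level (log2 RMA, vertical axis) of the 15 called genes in every array, by hours after cloprostenol (horizontal axis, 0 h being untreated). Points are arrays in order of replicate number, bars are group means, and each panel has its own scale. The 6 h points lie beyond both 3 h points in every panel, as in 29.1% of all genes. They also lie beyond all 0 h points, for which the share over all genes was not counted. The CRY1 points at 18 h are back among those at 0 h.

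HS3ST5 encodes a sulfotransferase that finishes heparan sulfate chains, the sugar chains that hold growth factors and clotting inhibitors at the cell surface. It read 5.24 and 5.40 in 3 h replicates 1 and 3, and 9.68, 8.47 and 9.02 in the 3 arrays at 6 h. The 3 h arrays lay just under the untreated range of 5.64 to 6.52, so the gene went from its lowest levels of the series to its highest. This was a 13.4-fold increase (log2 3.74 ± 0.38, adjusted p = 0.0036). At 18 h it read between 7.00 and 8.05.

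MAP3K7CL, which shares sequence with the C-terminal end of the kinase TAK1, read 5.49 and 5.66 at 3 h and 8.91, 9.05 and 8.92 at 6 h. Both 3 h arrays were within the 0 h range, which was wide (5.39 to 7.43), and the 6 h arrays were close to one another. The increase was 10.5-fold (log2 3.39 ± 0.50, adjusted p = 0.0293). The call was lost without 3 h replicate 1 (adjusted p = 0.0732), 6 h replicate 1 (0.109) or 6 h replicate 2 (0.0765), while the difference stayed between 3.30 and 3.47. The open reading frame C23H6orf141, which has no settled role and is named after its values were seen, showed a like course with 6.44 and 6.82 at 3 h and 9.65, 8.81 and 9.09 at 6 h (log2 2.55 ± 0.30, adjusted p = 0.0109).

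SYT1, the calcium sensor of vesicle release in neurons and endocrine cells, read 6.10 and 6.17 at 3 h and 8.44, 7.60 and 7.77 at 6 h. It was the only one of the 11 up regulated genes in which both 3 h arrays already lay above the untreated range (4.97 to 5.50), and all 6 h arrays lay higher again. The gain from 3 h to 6 h was 3.48-fold (log2 1.80 ± 0.23, adjusted p = 0.0151). A second probe set given the same symbol differed by -0.10 and was not called.

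NPPC encodes C-type natriuretic peptide, which acts through a guanylyl cyclase receptor on vessels and in the follicle. It read 6.03 and 6.02 at 3 h, and 7.50, 7.43 and 7.14 at 6 h. The 3 h arrays were 0.00804 apart, the least of any called gene, and lay just under the 0 h range of 6.07 to 6.23. NPPC had the smallest adjusted p of the comparison (log2 1.33 ± 0.12, adjusted p = 0.0031). Its other probe set differed by -0.02, so the value rests on 1 of 2 probe sets, and with both averaged the call was lost (log2 0.66, adjusted p = 0.0507). The same held for SYT1 (log2 0.85, adjusted p = 0.0574).

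MYLIP encodes a ubiquitin ligase that sends the LDL receptor for breakdown. It read 8.20 and 7.66 at 3 h, both under the untreated range of 8.71 to 8.91, and 10.16, 9.48 and 9.25 at 6 h. The increase was 3.25-fold (log2 1.70 ± 0.24, adjusted p = 0.0210), and at 18 h the gene still read between 9.63 and 9.93. Its second probe set gave a smaller difference of 0.62 (adjusted p = 0.0974 over probe sets).

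CRY1, a repressor in the circadian clock, was highest at 6 h. It read 7.37 and 7.16 at 3 h, 8.37, 8.09 and 8.16 at 6 h, and 7.41, 7.41 and 7.31 at 18 h. The untreated arrays spanned 7.23 to 7.46, so the 18 h arrays lay wholly within the 0 h range, which held for no other called gene. The rise from 3 h was 1.92-fold (log2 0.94 ± 0.12, adjusted p = 0.0151).

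Calls of HS3ST5, SYT1, MYLIP, NPPC, CRY1 and C23H6orf141 held in each of the 12 fits that left out 1 array. With the replicate number added to the fit as a block, SYT1 (adjusted p = 0.127), MYLIP (0.0838) and CRY1 (0.0838) lost their calls. In the fit on the 5 arrays at 3 h and 6 h alone none of these genes was called (adjusted p from 0.116 to 0.275). GPRC5C, an orphan receptor of the retinoic acid induced family, read 7.72 and 7.55 at 3 h and 8.91, 8.61 and 8.79 at 6 h (log2 1.13 ± 0.15, adjusted p = 0.0187). Both of its probe sets were called. Among the fits that left out 1 array its call was lost only without 6 h replicate 1 (adjusted p = 0.0813), and in the fit on the 5 arrays alone it was not called (0.169).

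Another 3 up regulated genes were less secure. CFL2, a muscle-type cofilin that severs actin filaments, read 9.94 and 10.74 at 3 h and 12.31, 11.65 and 11.68 at 6 h (log2 1.54 ± 0.25, adjusted p = 0.0449). SCHIP1, a partner of the tumour suppressor schwannomin, read 9.41 and 9.76 at 3 h and 11.11, 11.00 and 10.83 at 6 h (log2 1.39 ± 0.22, adjusted p = 0.0396), and its second probe set differed by 0.13. GTF3C2, a subunit of the RNA polymerase III factor TFIIIC, read 8.11 and 8.45 at 3 h and 9.09, 9.06 and 8.97 at 6 h (log2 0.76 ± 0.12, adjusted p = 0.0345). Leaving out 1 array lost the call of CFL2 in 8 of 12 fits and of SCHIP1 and GTF3C2 in 7 each, 3 h replicate 1 and 6 h replicates 1 and 2 among them, with adjusted p up to 0.14, while the direction held. With 0 h replicates 1 and 4 averaged, CFL2 (adjusted p = 0.085) and GTF3C2 (0.0704) also lost their calls.

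The down regulated genes were PIM2, ZMYM3, MYCBP2 and SLC25A28. PIM2, a survival kinase of the PIM family, read 12.32 and 12.15 at 3 h, within the untreated range of 11.95 to 12.44, and 10.54, 11.11 and 10.94 at 6 h. The level was 2.58-fold lower at 6 h (log2 -1.37 ± 0.19, adjusted p = 0.0187), and at 18 h lay between 10.20 and 10.46. Without 3 h replicate 1 its adjusted p was 0.0631.

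ZMYM3, a zinc finger protein of a histone deacetylase complex, read 9.52 and 8.95 at 3 h and 8.11, 7.94 and 8.28 at 6 h (log2 -1.13 ± 0.17, adjusted p = 0.0334). MYCBP2, a large ubiquitin ligase, read 9.88 and 9.60 at 3 h and 8.82, 8.81 and 9.05 at 6 h (log2 -0.84 ± 0.12, adjusted p = 0.0233). SLC25A28, the mitochondrial iron importer mitoferrin 2, read 10.06 and 9.88 at 3 h and 8.98, 9.13 and 9.37 at 6 h (log2 -0.82 ± 0.13, adjusted p = 0.0410). Its 3 h arrays were already under the untreated range of 10.23 to 10.35. The calls of ZMYM3, MYCBP2 and SLC25A28 were lost in 7, 3 and 8 of the 12 fits without 1 array, with adjusted p up to 0.127, 0.109 and 0.135, and MYCBP2 lost its call without 3 h replicate 1, 6 h replicate 1 or 6 h replicate 2. With 0 h replicates 1 and 4 averaged, ZMYM3 (adjusted p = 0.065) and SLC25A28 (0.085) lost their calls.

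Several genes met the threshold over probe sets but not over genes. EMCN, the sialomucin of venous and capillary endothelium, read 11.74 and 11.17 at 3 h and 10.55, 9.74 and 10.14 at 6 h (log2 -1.31 ± 0.23, adjusted p = 0.0572 over genes and 0.0444 over probe sets). CCND1, cyclin D1, read 7.28 and 7.35 at 3 h and 6.09, 6.24 and 6.19 at 6 h (log2 -1.14 ± 0.19, adjusted p = 0.0572). The 6 h arrays of both genes lay below both 3 h arrays and below all untreated arrays. RBBP8, which processes broken DNA ends, read 9.25 and 9.82 at 3 h and 11.43, 10.91 and 10.75 at 6 h (log2 1.50 ± 0.26, adjusted p = 0.0572), with 2 of its 3 probe sets called.

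The remaining genes that the naming rule added without a call over genes were ADGRF1, TRAPPC2L, APLNR, SEPTIN4, CARD9, ZSWIM7 and DOK4, with adjusted p from 0.0588 to 0.0688. Over probe sets ADGRF1 and TRAPPC2L did meet the threshold (adjusted p = 0.0467 each). ADGRF1, an adhesion receptor, read 4.00 and 5.07 at 3 h and 7.06, 6.43 and 5.99 at 6 h. APLNR, the apelin receptor of endothelium, read 9.40 and 9.44 at 3 h and 7.60, 8.08 and 8.14 at 6 h (log2 -1.48 ± 0.27, adjusted p = 0.0608). Both 3 h arrays of APLNR lay within the untreated range of 9.15 to 9.59.

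AHSG, named here after its values were seen, accounted for 4 of the 57 called probe sets and for the 3 largest differences among them. AHSG encodes fetuin A, a plasma glycoprotein made mainly by liver. The probe set with the highest mean read 9.39 and 9.47 at 3 h and 13.64, 13.97 and 12.32 at 6 h, while the untreated arrays ranged from 10.27 to 12.84. Both 3 h arrays thus lay below every untreated array, and the 6 h arrays lay back near or above them. Over probe sets the difference was 3.88 ± 0.67 (adjusted p = 0.0468), and over genes it missed the threshold (adjusted p = 0.0588).

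The 4 called AHSG probe sets differed by 4.54, 3.98, 3.88 and 3.27. The annotation gives AHSG for 8 probe sets in all, from 2 sequence clusters by their probe set names. All 4 that were called are among the 6 from the same cluster, whose other members differed by 0.14 and 0.50, and the 2 from the second cluster differed by 0.21 and 0.11. The symbol was therefore not borne out across its probe sets, and which transcript the called ones measure is not settled here.

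Another 6 symbols were called on a probe set that was not the brightest of its gene, and these are given because they were few and after their values were seen. They were ATL1 (log2 1.84), EXT1 (1.33), IP6K2 (1.11), EPS8 (1.01), GMCL1 (0.81) and EID3 (-0.89). EXT1, a polymerase of the heparan sulfate chain that HS3ST5 finishes, gave 1.33 (adjusted p = 0.0385), 1.20 (0.0599) and -0.11 (0.806) in its 3 probe sets. The brightest EXT1 probe set read 9.92 and 10.65 at 3 h and 11.78, 11.51 and 11.18 at 6 h.

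The gap between the 2 arrays at 3 h shaped the rest of the comparison. In 343 genes 3 h replicate 3 was over 2-fold above replicate 1, and the 6 h mean lay nearer replicate 3 in 246 of them (71.7%, against 54.6% over all genes), while the 0 h mean lay nearer replicate 1 in 262 (76.4%, against 55.8%). In the 262 genes with replicate 1 over 2-fold above replicate 3, the 6 h mean lay nearer replicate 3 in 182 (69.5%) and the 0 h mean nearer replicate 1 in 109 (41.6%). These are descriptions of 2 animals and were not tested.

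**Figure D2:**
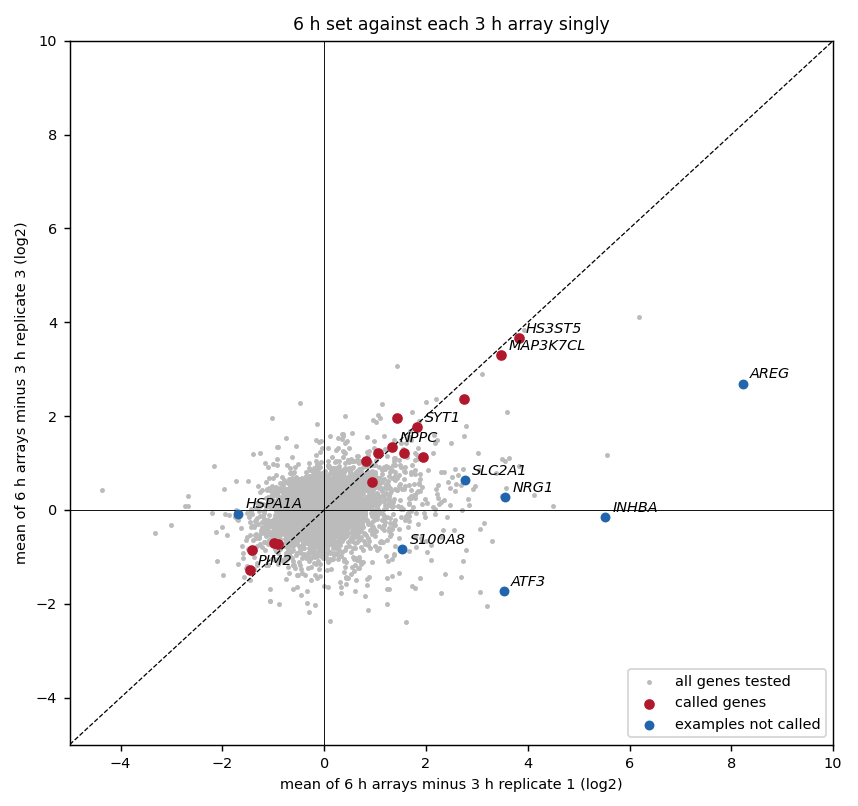
For each of 9155 genes, the mean of the 3 arrays at 6 h minus 3 h replicate 1 (horizontal axis, log2) and minus 3 h replicate 3 (vertical axis, log2). Red points are the 15 called genes, blue points are 7 genes that were not called, and the dashed line marks equal differences. The called genes lie near the line, while AREG, INHBA and ATF3 lie far to its right, since 3 h replicate 3 was more than 2-fold above replicate 1 in each.

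The widest gaps at 3 h were those of INHBA, AREG, RGS16 and ATF3. INHBA, the activin A subunit, read 7.29 in 3 h replicate 1 and 12.96 in replicate 3, and 13.48, 13.17 and 11.78 at 6 h. ATF3, a stress-induced transcription factor, read 7.52 and 12.78 at 3 h and 11.37, 11.78 and 9.97 at 6 h. For both genes replicate 1 lay near or below the untreated mean (8.05 and 7.27) and replicate 3 within or above the 6 h values.

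Neither was called against the mean of both arrays (INHBA, log2 2.69 ± 1.21, adjusted p = 0.331; ATF3, log2 0.90 ± 1.30, adjusted p = 0.791). Against replicate 1 alone INHBA gave 5.52 (adjusted p = 0.0029), and against replicate 3 alone -0.15 (0.944). ATF3 turned from 3.53 against replicate 1 to -1.73 against replicate 3. With 1 array at 3 h the fit assumes that it varies like arrays of the other groups.

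AREG, the EGF receptor ligand amphiregulin, differed in another way, since the 6 h arrays lay above both. It read 4.23 in 3 h replicate 1, under the untreated range of 4.72 to 7.36, and 9.76 in replicate 3, above it. The 6 h arrays read 12.51, 12.05 and 12.79. The mean difference was 43.9-fold (log2 5.46 ± 1.23), with an adjusted p of 0.105, and it was 8.22 (adjusted p = 0.0012) against replicate 1 alone and 2.69 (0.168) against replicate 3 alone. NRG1, a ligand of the related ERBB receptors, read 5.56 and 8.84 at 3 h and 9.59, 9.66 and 8.10 at 6 h, so its groups overlapped.

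RGS16, SHROOM3, FOSB, TRIB1 and S100A12 were chosen as further examples after their values were seen. RGS16, a brake on G protein signals, read 7.49 and 12.75 at 3 h and 10.44, 11.68 and 9.97 at 6 h. SHROOM3 read 6.05 and 10.85, FOSB 6.95 and 11.06, and TRIB1 9.11 and 13.18 in 3 h replicates 1 and 3. In all of RGS16, SHROOM3, FOSB and TRIB1 replicate 3 was the higher of the 3 h arrays and also above each of the 6 h arrays. S100A12, a neutrophil protein, read 9.20 and 13.19 at 3 h and between 10.41 and 11.29 at 6 h.

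In the other direction CXCL13, a B cell chemokine, read 8.88 in 3 h replicate 1 and 4.10 in replicate 3, against 5.18, 3.88 and 4.50 at 6 h. A single high array also occurred without treatment: CXCL13 read 11.23 in 0 h replicate 3 and 3.81 to 4.12 in the other untreated arrays. The mitotic cyclin gene CCNB1 read 9.02 and 6.53 at 3 h, against 6.52, 8.02 and 8.72 at 6 h. CITED1 read 12.81 and 10.05 at 3 h. In CXCL13 replicate 1 was above every array at 6 h, while the 6 h arrays of CCNB1 spread over almost the whole gap.

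**Figure D3:**
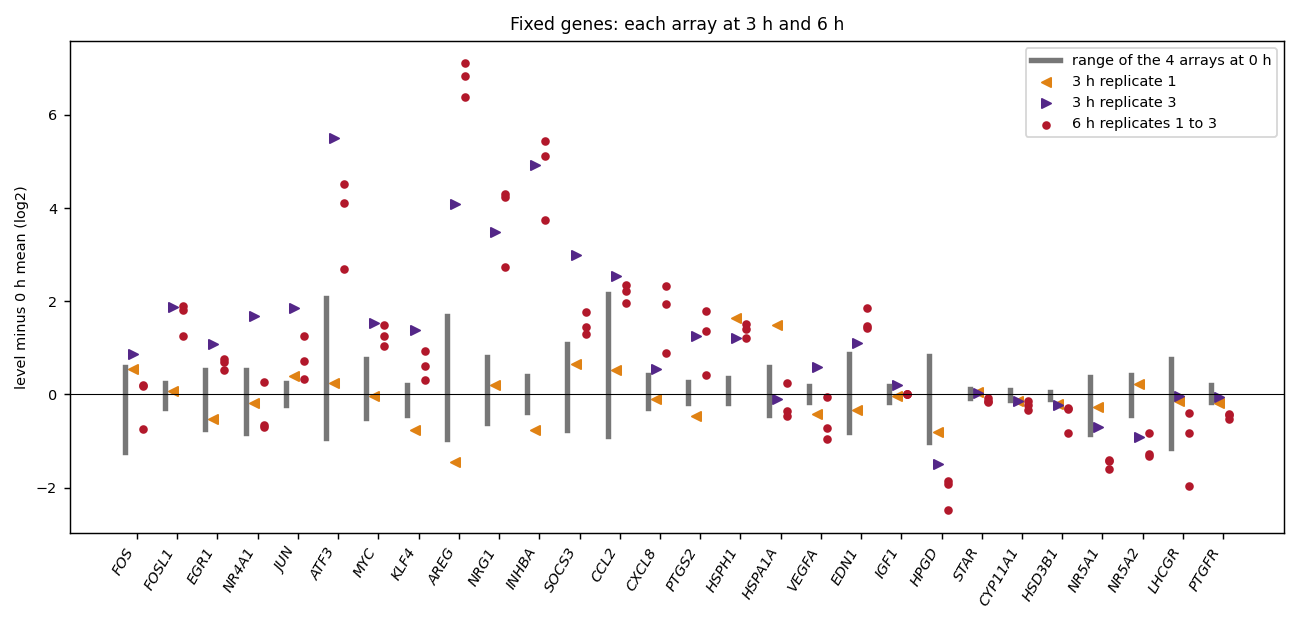
Levels of 28 genes of luteal regression minus their 0 h mean (vertical axis, log2), with grey bars for the range of the 4 untreated arrays, triangles for the 2 arrays at 3 h and red points for the 3 arrays at 6 h. The triangles of INHBA, ATF3 and AREG lie over 5 log2 units apart, and those of STAR and CYP11A1 almost coincide.

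Of the 23 pathway lists, 22 had no called member, and the clock list had CRY1 alone. The lists are therefore described by how many measured members had groups that did not overlap, which over all genes was 2660 of 9155 (29.1%), with 1115 (12.2%) higher and 1545 (16.9%) lower at 6 h, and by the median difference, which over all genes was -0.04. An unadjusted p under 0.05 was reached by 1358 genes (14.8%). In 10 of the 23 lists the median had opposite signs against 3 h replicate 1 and replicate 3.

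**Figure D4:**
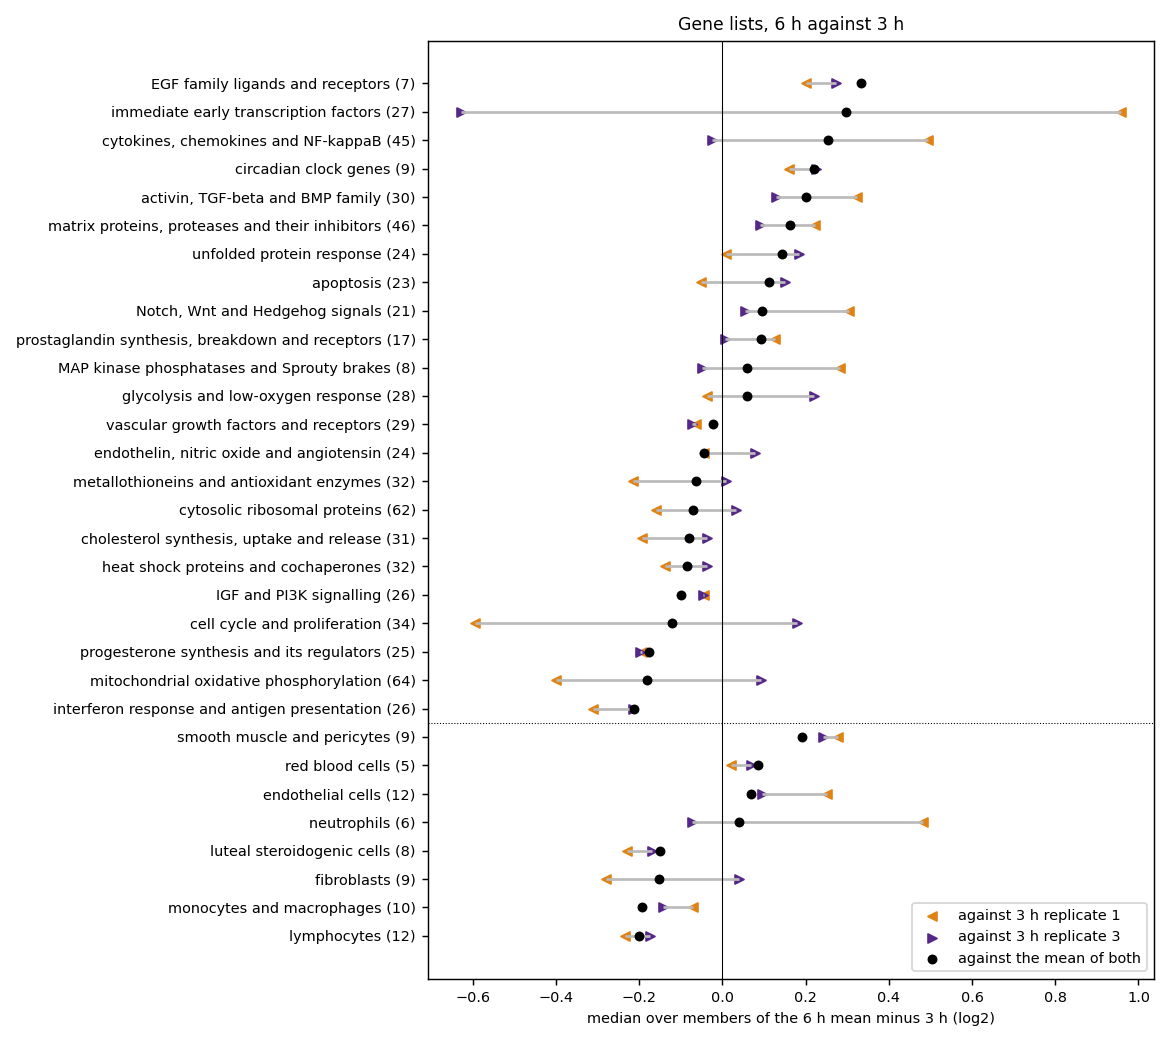
Median difference between 6 h and 3 h (horizontal axis, log2) over the measured members of 23 pathway lists (above the dotted line) and 8 cell type marker lists (below it), with the number of members in brackets. Black points use the mean of both 3 h arrays, left triangles 3 h replicate 1 alone and right triangles replicate 3 alone. The immediate early list ranges from -0.63 to 0.96, and the progesterone list stays between -0.20 and -0.18.

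The list of immediate early transcription factors had 27 measured members, of which 2 (7.41%) lay higher and 4 (14.8%) lower at 6 h without overlap. It also holds CCN2, a matricellular protein and not a transcription factor, which is 1 of the 2 that lay higher. The list median was 0.30, but 0.96 against replicate 1 and -0.63 against replicate 3, the widest gap of any list. FOS read 12.28 and 12.60 at 3 h and 11.90, 11.92 and 11.00 at 6 h. EGR1 read 11.69 and 13.30 at 3 h and 12.97, 12.92 and 12.73 at 6 h, JUN 11.31 and 12.78 at 3 h and 11.63, 12.17 and 11.26 at 6 h, and NR4A1 11.02 and 12.88 at 3 h and 10.51, 11.47 and 10.55 at 6 h. In FOS, EGR1, JUN and NR4A1 3 h replicate 3 held the highest of the 5 values.

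MYC read 10.38 and 11.95 at 3 h and between 11.45 and 11.91 at 6 h, KLF4 8.78 and 10.93 at 3 h and between 9.86 and 10.47 at 6 h, and FOSL1 7.56 and 9.37 at 3 h and between 8.76 and 9.39 at 6 h. The 6 h arrays of MYC and KLF4 lay between the 2 arrays at 3 h. CEBPD, a C/EBP factor of the acute phase response, had the lowest p of the list and no overlap, with 12.65 and 13.36 at 3 h and 11.86, 12.18 and 11.66 at 6 h (log2 -1.11 ± 0.32, adjusted p = 0.161). CCN2, the matricellular protein CTGF, read 11.53 and 13.99 at 3 h and 14.61, 14.46 and 14.41 at 6 h (log2 1.73 ± 0.58, adjusted p = 0.216).

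Heat shock and cochaperone genes (32 measured) had a median of -0.09, with 4 (12.5%) higher and 6 (18.8%) lower. HSPH1, a cochaperone of HSP70, read 12.43 and 11.99 at 3 h and 12.29, 12.20 and 12.01 at 6 h, all above the untreated maximum of 11.13. HSPA1A, an inducible HSP70, read 12.45 and 10.85 at 3 h and 11.19, 10.61 and 10.49 at 6 h. The HSPH1 level thus lay in the same range at both times, whereas HSPA1A was high in 3 h replicate 1 alone. Of the unfolded protein response genes (24 measured, median 0.14), 5 (20.8%) lay higher and none lower. Among them was the chaperone HSPA5 with 13.70 and 13.95 at 3 h and 14.32, 14.07 and 14.03 at 6 h (log2 0.31 ± 0.16, adjusted p = 0.389).

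The activin, TGF-beta and BMP family had 30 measured members, of which 10 (33.3%) lay higher and 2 (6.67%) lower without overlap, and the median was positive against both 3 h arrays (0.32 and 0.13). Among the ligands, TGFB2 read 5.76 and 6.93 at 3 h and 8.88, 8.72 and 7.93 at 6 h (log2 2.16 ± 0.42, adjusted p = 0.0688). BMP2 read 5.71 and 6.28 at 3 h and 8.57, 7.42 and 7.61 at 6 h, and BMP4 7.30 and 7.70 at 3 h and 8.14, 8.88 and 8.76 at 6 h. Of the receptors, TGFBR1 read 6.56 and 5.77 at 3 h and 6.90, 7.07 and 6.96 at 6 h. For each of these genes all 6 h arrays lay above both 3 h arrays, and none was called.

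The 2 members that lay lower are nuclear targets of BMP signals. ID1 read 12.06 and 12.37 at 3 h and 10.93, 11.58 and 11.45 at 6 h (log2 -0.90 ± 0.18, adjusted p = 0.0691), and ID3 read 10.88 and 10.78 at 3 h and 10.02, 9.77 and 10.37 at 6 h. The ID1 value rests on 1 of 2 probe sets, since the other did not share its sign. BAMBI, a decoy receptor that dampens the pathway, read 8.28 and 8.78 at 3 h and 9.55, 9.89 and 10.31 at 6 h (log2 1.39 ± 0.28, adjusted p = 0.0691), and its 18 h mean was 8.56 against 8.38 at 0 h. BMP2, BMP4, TGFBR1, ID3 and BAMBI are examples chosen after their values were seen.

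Cytokines, chemokines and NF-kappaB genes (45 measured) had 10 (22.2%) members higher and 6 (13.3%) lower. Their median was 0.25, but 0.49 against replicate 1 and -0.03 against replicate 3. CXCR4, the receptor of CXCL12, read 9.63 and 8.66 at 3 h and 10.78, 10.32 and 10.64 at 6 h (log2 1.44 ± 0.36, adjusted p = 0.128). CXCL8, which draws neutrophils, read 7.84 and 8.48 at 3 h and 10.27, 9.88 and 8.83 at 6 h (adjusted p = 0.254), while the monocyte chemokine CCL2 read 11.26 and 13.28 at 3 h and 13.09, 12.95 and 12.69 at 6 h. SOCS3, a brake on cytokine receptors, read 7.08 and 9.41 at 3 h and 7.87, 8.20 and 7.72 at 6 h. CXCR4 and CXCL8 thus lay higher in every 6 h array, and CCL2 and SOCS3 lay between the 2 arrays at 3 h.

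In the prostaglandin list (17 measured, median 0.09) 2 (11.8%) members lay higher and 2 (11.8%) lower. PTGER2, a PGE2 receptor, read 4.40 and 4.68 at 3 h and 5.34, 5.85 and 5.42 at 6 h (log2 0.999 ± 0.27, adjusted p = 0.140). PTGS2, the inducible cyclooxygenase, read 6.87 and 8.58 at 3 h and 9.12, 8.69 and 7.74 at 6 h. Of the 3 PTGS2 probe sets only this 1 had a positive difference. HPGD, which inactivates prostaglandins, read 6.82 and 6.14 at 3 h and 5.15, 5.71 and 5.77 at 6 h (log2 -0.94 ± 0.47, adjusted p = 0.371). The receptor of PGF2α itself, PTGFR, read 13.39 and 13.53 at 3 h and 13.13, 13.16 and 13.05 at 6 h (log2 -0.34 ± 0.13, adjusted p = 0.258).

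Progesterone synthesis genes and their regulators (25 measured) had 2 (8.0%) members higher and 8 (32.0%) lower. The list median was -0.18, nearly equal against both 3 h arrays. The enzymes gave small differences. CYP11A1, which makes pregnenolone, read 14.13 and 14.14 at 3 h and 13.95, 14.13 and 14.06 at 6 h, and HSD3B1, which makes progesterone, read 14.65 and 14.64 at 3 h and 14.03, 14.57 and 14.56 at 6 h. Differences of log2 -0.09 ± 0.15 for CYP11A1, -0.26 ± 0.19 for HSD3B1 and -0.18 ± 0.13 for STAR were not called (adjusted p = 0.837, 0.566 and 0.560).

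The regulators named here gave larger values, but their size cannot be set against that of the enzymes. STAR, CYP11A1 and HSD3B1 read near the top of the scale (highest value 15.33), where differences can be understated. Whether they were understated for these genes was not tested. NR5A1 and GATA4 had the lowest p of the list, by which GATA4 was named. NR5A1 (SF-1), which drives steroidogenic genes, read 9.81 and 9.38 at 3 h and 8.66, 8.47 and 8.65 at 6 h, so no 6 h array reached the 3 h or the untreated levels (log2 -1.002 ± 0.31, adjusted p = 0.195). GATA4 read 9.38 and 9.57 at 3 h and 8.99, 8.94 and 8.98 at 6 h (log2 -0.50 ± 0.16, adjusted p = 0.196). NR5A2, the NR5A1 relative, read 10.18 and 9.04 at 3 h and 8.64, 9.13 and 8.68 at 6 h and overlapped. LHCGR, the LH receptor, read 11.28 and 11.40 at 3 h and 9.46, 11.04 and 10.61 at 6 h, a wide 6 h spread (log2 -0.97 ± 0.73, adjusted p = 0.573).

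Cholesterol genes (31 measured, median -0.08) had 1 (3.23%) member higher and 6 (19.4%) lower. NR1H3 (LXRα), the sterol sensor that induces cholesterol export, read 9.90 and 9.01 at 3 h and 8.27, 8.47 and 8.37 at 6 h (log2 -1.09 ± 0.22, adjusted p = 0.0694). OLR1, a scavenger receptor for oxidised LDL, read 7.46 and 7.67 at 3 h and 11.21, 10.59 and 9.89 at 6 h (log2 3.00 ± 0.86, adjusted p = 0.163). The OLR1 arrays at 3 h were 0.21 apart, but 0 h replicate 3 read 9.21 against 5.56 to 6.33 in the other untreated arrays, and without it OLR1 was called (adjusted p = 0.0088).

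Vascular genes lay in both directions. Among 29 growth factors and receptors 5 (17.2%) lay higher and 6 (20.7%) lower. Among 24 endothelin, nitric oxide and angiotensin genes 5 (20.8%) lay higher and 5 (20.8%) lower. ANGPT1, a ligand that steadies vessels, read 9.08 and 9.32 at 3 h and 8.42, 8.37 and 8.62 at 6 h (log2 -0.73 ± 0.19, adjusted p = 0.130). VEGFA read 11.49 and 12.50 at 3 h and 11.19, 11.86 and 10.96 at 6 h, and the vasoconstrictor EDN1 read 8.39 and 9.82 at 3 h and 10.58, 10.14 and 10.19 at 6 h (log2 1.20 ± 0.52, adjusted p = 0.317). NOSTRIN, which moves nitric oxide synthase in from the membrane, read 10.07 and 10.20 at 3 h and 9.66, 9.46 and 9.75 at 6 h, with 11.02 to 11.11 in the untreated arrays (log2 -0.51 ± 0.12, adjusted p = 0.118). ADM, adrenomedullin, read 11.58 and 12.85 at 3 h and 13.41, 13.48 and 13.40 at 6 h. VEGFA overlapped, and ANGPT1, NOSTRIN, EDN1 and ADM did not.

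Of 46 matrix proteins, proteases and inhibitors, 15 (32.6%) lay higher and 5 (10.9%) lower, with a median of 0.16 that was positive against both 3 h arrays. ITGB1, the common integrin chain, read 13.23 and 13.57 at 3 h and 14.03, 13.93 and 13.87 at 6 h (log2 0.55 ± 0.12, adjusted p = 0.0970). LGALS3, the lectin galectin 3, read 11.41 and 11.80 at 3 h and 12.96, 12.71 and 12.62 at 6 h (log2 1.15 ± 0.27, adjusted p = 0.114). PLAUR, the urokinase receptor, and CD44, the hyaluronan receptor, are further examples chosen after their values were seen. PLAUR read 7.56 and 9.43 at 3 h and 10.49, 10.24 and 10.15 at 6 h, and CD44 read 8.39 and 8.10 at 3 h and 10.49, 10.39 and 10.31 at 6 h (log2 2.15 ± 0.77, adjusted p = 0.243). In CD44 the 2 arrays at 3 h lay close together, as did the 3 at 6 h, while the untreated arrays ranged from 6.23 to 9.39.

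Apoptosis genes (23 measured, median 0.11) had 4 (17.4%) members higher and 1 (4.35%) lower. CFLAR, which blocks caspase 8, read 8.45 and 9.22 at 3 h and 10.79, 10.42 and 10.72 at 6 h (log2 1.80 ± 0.46, adjusted p = 0.130), and BCL2L1 read 6.97 and 6.36 at 3 h and 7.87, 7.51 and 6.93 at 6 h. The BCL2L1 groups overlapped (adjusted p = 0.219). Both encode inhibitors of cell death, but they were named for the lowest p of the list and neither was called. Cell cycle genes (34 measured) had 3 (8.82%) higher and 3 (8.82%) lower. Their median was -0.12, which was -0.60 against replicate 1 and 0.18 against replicate 3. CCNE1, cyclin E1, read 6.64 and 6.34 at 3 h and 7.23, 7.17 and 7.09 at 6 h (log2 0.67 ± 0.12, adjusted p = 0.0608), the opposite direction to CCND1.

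IGF and PI3K genes (26 measured, median -0.10) had 5 (19.2%) higher and 7 (26.9%) lower. GAB1, an adaptor that links receptors to PI3K, read 9.92 and 9.94 at 3 h and 8.88, 9.09 and 9.08 at 6 h (log2 -0.91 ± 0.18, adjusted p = 0.0688), and IGFBP2 read 10.02 and 10.88 at 3 h and 9.18, 9.20 and 8.45 at 6 h (log2 -1.51 ± 0.41, adjusted p = 0.147). The untreated arrays ranged from 8.95 to 9.50 for GAB1 and from 8.62 to 9.75 for IGFBP2, so in both genes the 3 h arrays were the high ones. IGF1 read 8.53 and 8.79 at 3 h and between 8.58 and 8.59 at 6 h.

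Energy metabolism lists gave small medians. The oxidative phosphorylation subunits (64 measured) had no member higher and 5 (7.81%) lower, a smaller share than the 16.9% over all genes. Their median of -0.18 was -0.40 against replicate 1 and 0.09 against replicate 3. Ribosomal proteins (62 measured, median -0.07) had none higher and 12 (19.4%) lower, near the 16.9% over all genes. Glycolysis and low-oxygen genes (28 measured, median 0.06) had 9 (32.1%) higher and 2 (7.14%) lower. LDHA, which makes lactate, read 12.01 and 11.83 at 3 h and 12.72, 12.53 and 12.65 at 6 h (log2 0.71 ± 0.16, adjusted p = 0.106). Of the 3 LDHA probe sets, 2 had a positive difference. The glucose transporter SLC2A1 read 9.77 and 11.91 at 3 h and 12.50, 12.62 and 12.51 at 6 h (log2 1.70 ± 0.43, adjusted p = 0.130).

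Of 32 antioxidant and metallothionein genes, 1 (3.12%) lay higher and 6 (18.8%) lower (median -0.06). KEAP1, the sensor that restrains NRF2, read 9.89 and 9.84 at 3 h and 9.24, 9.49 and 9.34 at 6 h (log2 -0.51 ± 0.12, adjusted p = 0.118), and TXN, thioredoxin, read 13.50 and 13.34 at 3 h and 13.76, 14.19 and 13.99 at 6 h. Interferon and antigen presentation genes (26 measured) had 1 (3.85%) higher and 12 (46.2%) lower, and the median of -0.21 was negative against both 3 h arrays. IFI6, an interferon-induced mitochondrial protein, read 12.61 and 12.69 at 3 h and 11.83, 11.42 and 11.31 at 6 h (log2 -1.13 ± 0.33, adjusted p = 0.163). Here 0 h replicate 3 stood apart, its list median lying 1.03 above the 0 h mean, while the other untreated arrays lay between -0.44 and -0.38.

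Notch, Wnt and Hedgehog genes (21 measured, median 0.10) had 4 (19.0%) higher and 1 (4.76%) lower. DKK1, a secreted Wnt inhibitor, read 4.98 and 5.15 at 3 h and 6.67, 6.12 and 6.94 at 6 h (log2 1.51 ± 0.33, adjusted p = 0.0970). EGF family genes (7 measured) had 1 (14.3%) higher, AREG, and 1 (14.3%) lower. MAP kinase phosphatases and Sprouty brakes (8 measured, median 0.06) had 1 (12.5%) higher, DUSP10, with 5.16 and 4.97 at 3 h and 6.89, 5.71 and 5.31 at 6 h. Clock genes (9 measured, median 0.22) had 3 (33.3%) higher and 1 (11.1%) lower. Beside CRY1 the repressor NR1D1 read 9.25 and 8.59 at 3 h and 9.34, 9.40 and 9.41 at 6 h (adjusted p = 0.277). The receptor RORA read 7.07 and 7.05 at 3 h and 7.29, 7.41 and 7.36 at 6 h (adjusted p = 0.285). Of the 3 RORA probe sets, 2 had a positive difference.

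Markers of the cell types in a CL had no called member. Among 12 endothelial markers 3 (25.0%) lay higher and 1 (8.33%) lower, and 2 of them lay in opposite directions. PECAM1, a junction protein, read 10.42 and 10.89 at 3 h and 11.94, 11.78 and 11.54 at 6 h (log2 1.09 ± 0.24, adjusted p = 0.0984), while EMCN gave -1.31 as above. Smooth muscle and pericyte markers (9 measured) had 4 (44.4%) higher and none lower, among them ACTA2 with 11.68 and 12.61 at 3 h and 13.08, 13.19 and 12.93 at 6 h and TAGLN with 9.94 and 10.87 at 3 h and 12.22, 11.47 and 11.23 at 6 h (adjusted p = 0.258 and 0.295). Their median relative to the 0 h mean was 0.02 and 0.25 in the 3 h arrays and 0.23 to 0.56 at 6 h, but it already ranged from -0.25 to 0.48 among the untreated arrays.

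Luteal steroidogenic markers (8 measured) had none higher and 4 (50%) lower, with a median of -0.15. Lymphocyte markers (12 measured) had none higher and 6 (50%) lower, with a median of -0.20, among them CD8A with 8.36 and 7.80 at 3 h and 7.33, 6.83 and 6.96 at 6 h (log2 -1.04 ± 0.40, adjusted p = 0.273). Macrophage markers (10 measured) had 1 higher and 3 lower, and fibroblast markers (9 measured) had 2 of each. Neutrophil (6 measured) and red blood cell markers (5 measured) had none without overlap. Of the marker lists, the neutrophil list had the widest median gap between the 2 arrays at 3 h (0.51): S100A8 read 11.01 and 13.38 at 3 h and 12.65, 12.47 and 12.52 at 6 h. The part of these cell types in the other differences was not tested.

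Which array was left out decided how many genes were called. Without 3 h replicate 3 there were 659 called genes, 287 higher and 372 lower at 6 h, and all 15 were among them. Without 3 h replicate 1 there were 34, of which 7 were among the 15. Without 0 h replicate 3 there were 71, although that array is in neither group and enters only through the estimate of the spread. In a fit on the 5 arrays alone 2 genes were called, of which 1, MAP3K7CL (adjusted p = 0.0029), was among the 15.

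**Figure D5:**
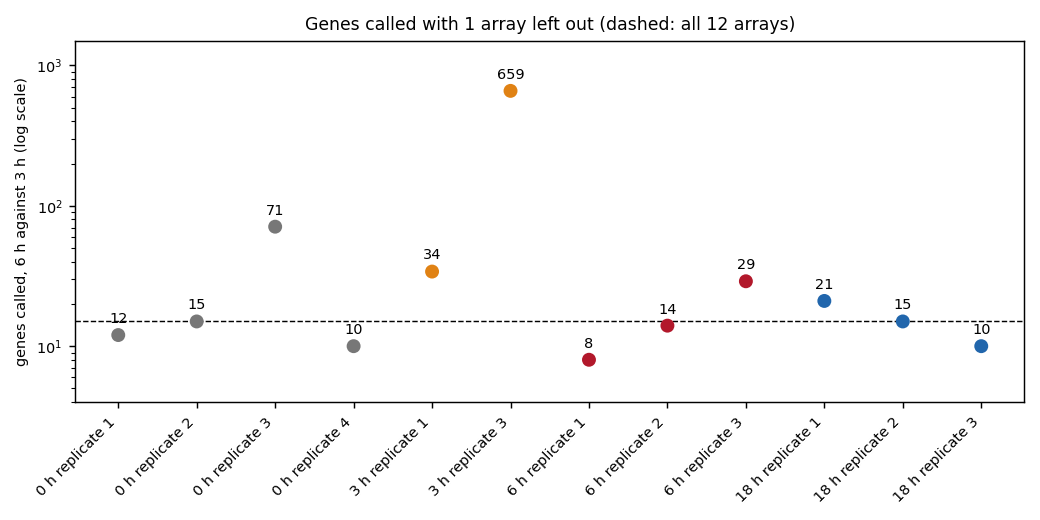
Number of genes called at 6 h against 3 h (vertical axis, log scale) when the array named on the horizontal axis was left out, coloured by time. The dashed line marks the 15 genes called with all 12 arrays. Counts run from 8 without 6 h replicate 1 to 659 without 3 h replicate 3.

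Without 3 h replicate 3, AREG (log2 8.22), INHBA (5.52), NRG1 (3.56), CCN2 (2.97), SLC2A1 (2.77), TGFB2 (2.75), FOSL1 (1.59), S100A8 (1.54), NR5A2 (-1.36) and HSPA1A (-1.69) were called, with adjusted p from 1.2e-04 to 0.0408. Against the other 3 h array alone none of them was called, and the values were 2.69, -0.15, 0.27, 0.50, 0.64, 1.58, -0.21, -0.84, -0.23 and -0.08 in the same order. The sign thus turned for INHBA, FOSL1 and S100A8. Of the 106 named genes, 31 became called without 3 h replicate 3, 19 without 0 h replicate 3 and 1, CCNE1 (log2 0.82, adjusted p = 0.0428), without 3 h replicate 1.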

How the data were processed

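The deposited values of the 12 arrays are on a log2 scale and, per the labels, come from the authors' use of the robust multichip average (RMA). The software, version and genome build were not given in the sources used here. The table held 24128 probe sets, and 112 control probe sets were left out. The platform annotation named 1 gene for 13292 probe sets, several for 86 and none for 10638. For genes, the probe set with the highest mean over 12 arrays was used, giving 9155 genes (8219 symbols also in the RefSeq buffalo annotation).

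A limma 3.58.1 fit (R 4.3.3) of 4 group means to all 12 arrays was moderated with eBayes and tested two-sided for 6 h minus 3 h, with Benjamini-Hochberg adjustment over all probe sets or genes and a threshold of 0.05. Values are log2 differences ± SE (n = 3 and 2). The groups' members, the 23 pathway and 8 marker lists and the naming rule were chosen with earlier results of these data known. Named were called genes whose groups did not overlap, filled up to 12 each way by lowest p without symbols of open reading frames, then the members with lowest p of each list (2, or 3 where a member was called) and 30 fixed genes, of which EREG and PER1 had no probe set named here. Non-overlap means that all 6 h arrays lay beyond both 3 h arrays. Levels near either end of the RMA scale can understate differences, which was not tested here. The number of arrays limits the precision. The fit was checked on simulated data. Alternatives were a filter on dim probe sets, other scalings and settings, fewer arrays, averaging 0 h replicates 1 and 4, a replicate block, the mean of a gene's probe sets and leaving out each array.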

Additional observations from a re-analysis of the deposited data

Results flagged for a closer look

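Of 106 named genes, 6 had a 0 h array far from the other 3. Chance gives about 1 in 20 groups, so this count is near the chance rate. The rule takes the untreated arrays as separate samples, while 0 h replicates 1 and 4 were nearly alike. In 0 h replicate 3 HS3ST5 read 6.52 (others 5.64 to 5.72), HSPA2 9.62 (10.12 to 10.18), DKK1 6.27 (5.12 to 5.30) and CCL2 12.89 (9.85 to 10.13). CREB3L2 read 7.95 in 0 h replicate 4 (8.90 to 8.96), and GTF3C2 8.50 in 0 h replicate 2 (8.37 to 8.39). These arrays enter the comparison of 6 h with 3 h through the estimate of the spread alone.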

How the results depend on the processing

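The 57 probe sets and 15 genes became 62 and 18 without the dimmest 40% of probe sets, 65 and 12 after repeated quantile normalization, 52 and 14 with array medians subtracted, 61 and 15 with trend and robust settings. Only the 5 arrays at 3 h and 6 h gave 5 and 2, the 8 treated arrays 18 and 13, and 0 h replicates 1 and 4 averaged 27 and 12. Leaving out 1 array gave 16 to 1024 probe sets and 8 to 659 genes, and the share of probe sets higher at 6 h went from 77.2% to 53.5% without 3 h replicate 1. The replicate block gave 3 probe sets and 4 genes. The numbers come from separate animals, so they were not taken as a pairing. Same-numbered arrays of 3 h and 6 h deviated with correlations of -0.127 and -0.26 in 2 pairs. With 2 arrays at 3 h their deviations mirror each other, so these correlations cannot tell whether the numbers mark a pairing. The distance of the 3 h pair was 1101 to 1320 probe sets. No called gene reversed. Signs turned for uncalled genes: HSPH1 under the replicate block (0.0078), and HSPH1 and IGF1 with a gene's probe sets averaged (0.0914 and 0.021). With 1 array left out, values ran from -0.816 to 0.0406 for FBLN1, -0.0676 to 0.917 for S100A9, -0.84 to 1.54 for S100A8, -0.26 to 0.0079 for HBA, -0.21 to 1.59 for FOSL1, -0.42 to 1.18 for EGR1, -1.73 to 3.53 for ATF3, -0.27 to 1.30 for MYC, -0.77 to 1.39 for KLF4, -0.15 to 5.52 for INHBA, -0.27 to 0.17 for HSPH1, -0.37 to 1.65 for CCL2, -0.058 to 1.65 for PTGS2, -1.09 to 0.38 for JUN, -1.48 to 0.85 for SOCS3 and -0.20 to 0.053 for IGF1. The end of the range whose sign turned came without 3 h replicate 1, except for JUN, SOCS3 and IGF1 (without 3 h replicate 3), and HSPH1 also turned without 6 h replicate 3 (0.0312). The cause was not tested.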
